A study of Mus musculus with 10 samples.

Results

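The genes described here make cholesterol and fatty acids, or control the transcription factors that switch both pathways on. The list names 32 genes: 18 of sterol synthesis, 5 of the control of SREBP (sterol regulatory element-binding protein) and 9 of fatty acid synthesis. A gene was taken as measured where at least 1 row of the array table was annotated to it, or to its synonym, alone. That held for 28 of the 32 genes, 16 of sterol synthesis, 4 regulators and 8 of fatty acid synthesis, out of 30627 genes in the whole table. Tm7sf2, Srebf1 and Scd2 were left out because their rows also name another gene (Vps51, Mir6922 and Mir5114), and Acat2 was not analysed here.

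RNA came from whole kidneys of 5-week-old mice, with 5 control and 5 knockout animals on 10 arrays. Knockouts (Lkb1Δtub) came from crosses of Lkb1 flox/flox mice, Lkb1 being another name of Stk11, with the Cre line B6.Cg-Tg(Cdh16-cre)91lgr/J (KspCre), whose Cre recombinase is under the Cdh16 promoter and acts in tubule epithelium. Controls were Lkb1 flox/+ or flox/flox littermates without KspCre, so an effect of Cre itself cannot be told apart from that of the Lkb1 deletion. Cells in which KspCre does not act keep Lkb1 in this model, and how evenly it acted along the tubule was not measured. The strain is labelled C57Bl/6N although the floxed mice had a mixed background. Sample titles have KD (knockdown) where the breeding makes a knockout in tubule cells, and the design text speaks of MDCK cells although all 10 samples are mouse kidney. Values are RMA log2 expression values, so a difference of 1 means 2-fold.

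Cholesterol is built from acetyl-CoA through mevalonate, isoprenoids, squalene and lanosterol, and the enzymes of this route are induced by SREBP2 when the endoplasmic reticulum is low in sterol. SCAP carries SREBP to the Golgi for cleavage, and the INSIG proteins hold SCAP back when sterol is plentiful. Fatty acids are built from citrate-derived acetyl-CoA by ATP citrate lyase, acetyl-CoA carboxylase and fatty acid synthase, then lengthened by elongases and desaturated by stearoyl-CoA desaturases. LKB1 activates AMPK, which phosphorylates and inhibits acetyl-CoA carboxylase, a step that RNA levels do not measure. The comparison of knockout with control kidneys asks which of these transcripts differ where KspCre deletes Lkb1 in tubule cells. It also asks whether sterol and fatty acid genes differ in the same direction.

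The bases before the start of Idi1 and Lss, which fell, are printed to show control regions of sterol genes that the results turn on. Those of Hmgcs1, which did not pass the test, are printed beside them. Of the 27 listed genes whose sequence was searched, only Hmgcs1 holds a match to the sterol regulatory element letters used here. The sequences are from RefSeq (build GRCm38.p6), on the plus strand, 5′ to 3′: Idi1 at chr13:8885356-8885605, Lss at chr10:76531355-76531564 and Hmgcs1 at chr13:119690101-119690350. Capitals mark matches to TCACNCCAC (a sterol regulatory element), CCAAT (bound by NF-Y), GGGCGG (a GC box, bound by Sp1) and CACGTG (an E-box), on either strand, so that ATTGG is CCAAT and CCGCCC is GGGCGG read on the other strand.
Idi1: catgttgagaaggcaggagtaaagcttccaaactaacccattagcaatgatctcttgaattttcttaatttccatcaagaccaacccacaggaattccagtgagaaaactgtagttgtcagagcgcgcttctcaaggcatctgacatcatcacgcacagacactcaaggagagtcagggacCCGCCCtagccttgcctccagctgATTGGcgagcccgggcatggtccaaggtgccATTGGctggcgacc
Lss: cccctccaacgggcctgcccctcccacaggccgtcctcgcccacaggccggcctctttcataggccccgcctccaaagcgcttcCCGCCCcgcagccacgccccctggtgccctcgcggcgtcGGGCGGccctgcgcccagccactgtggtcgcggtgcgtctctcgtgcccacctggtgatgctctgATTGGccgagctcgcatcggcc
Hmgcs1: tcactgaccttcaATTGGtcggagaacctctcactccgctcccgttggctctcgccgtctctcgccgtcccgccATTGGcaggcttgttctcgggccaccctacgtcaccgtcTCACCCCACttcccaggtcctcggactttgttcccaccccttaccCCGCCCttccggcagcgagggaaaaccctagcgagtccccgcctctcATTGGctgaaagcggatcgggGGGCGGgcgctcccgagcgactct

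Of the 32 listed genes, 27 had a window in the table, with 36 windows of 250 bases among them. Fdft1, Fdps, Sqle, Scd1 and Scd2 had none. A match to CCAAT was present in 63.9% of these windows, against 33.8% of all 32851 windows and 35.4% of the 21262 windows of protein-coding genes. GGGCGG was found in 69.4%, against 32.7% of all windows and 42.6% of protein-coding ones, and CACGTG in 16.7%, against 6.02% and 6.63%. TCACNCCAC was found in 1 of the 36 windows (2.78%, against 1.05% of all windows), that of Hmgcs1, where it lies 137 to 129 bases before the start. Idi1 has a CCAAT match 45 to 41 and another 14 to 10 bases before the start. Lss has 1 at 62 to 58 bases before the transcript start that the table uses, which lies inside the gene's annotated span, so its printed run stops short of that start. No match says only that these letters are absent from this window, and the motif shares are a description of the sequences.

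In the knockouts, 3 of the 28 measured genes fell and 1 rose: Acacb, Idi1 and Lss were lower and Scd1 was higher. That is 14.3% of the measured genes, beside 7.89% of all 30627 genes (2.68% lower and 5.21% higher). Here and below, shares of all genes include dim ones: a filter on dim genes kept 20017 of the 30627. Of the 28 genes, 27 had a control mean above 80% of the negative control rows. The 14.3% and 7.89% thus compare genes of unlike brightness, and the part of brightness in their gap was not tested. The test was limma, two-sided, with Benjamini-Hochberg adjustment over all genes and a threshold of 0.05. Scd1 was called on the mean of its 2 rows. The dimmer row passed alone (adjusted p = 0.0153) and the brighter row did not (0.28). The knockout values lay below every control value for 3 of the 28 genes (Acacb, Idi1 and Insig2), where 3.5% of all genes did so, and lay above every control value for 0 of them, where 5.0% of all genes did. Of the 28, 19 had a difference below 0 (67.9%), as had 62.0% of all genes. The median difference was -0.07 over the 28 and -0.03 over all genes.

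Stk11, the targeted gene, was lower in every knockout (9.07 to 9.31) than in every control (9.40 to 9.48). Its log2 difference was -0.25 (SE 0.048, limma adjusted p = 0.00766), and knockout 5 kept the highest value among the knockouts. The array gives 1 value for the whole transcript, in all cells of the kidney together. Here and below, less RNA per cell and fewer cells of a type cannot be told apart.

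**Figure D1:**
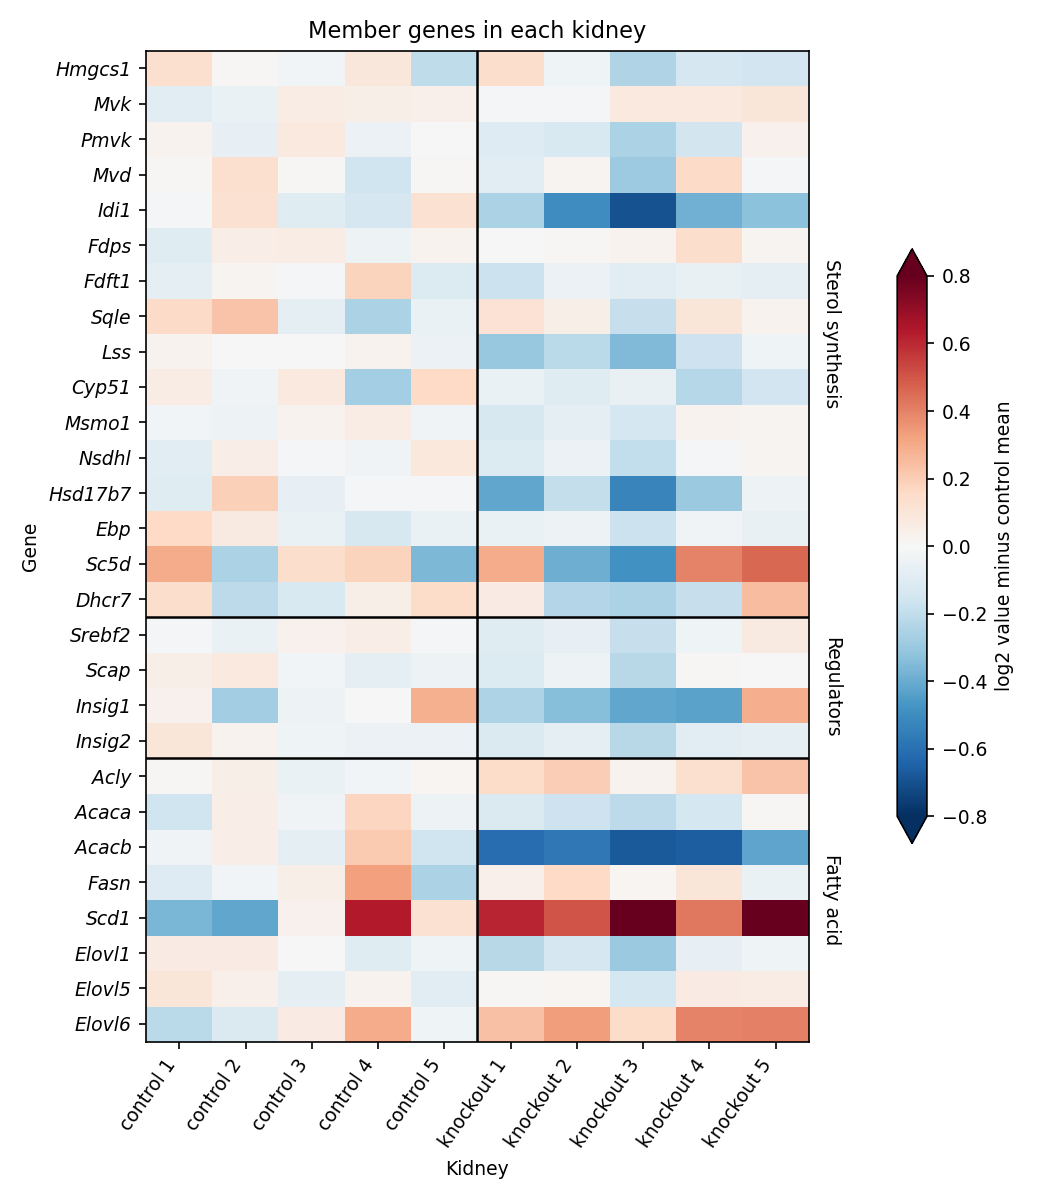
Each cell is the log2 value of a gene (rows) in a kidney (columns) minus the mean of the 5 controls, with colours limited to -0.8 to 0.8. Acacb and Idi1 are blue in all 5 knockouts, Scd1 and Elovl6 are red in all 5, and knockout 3 has the lowest knockout value for 12 of the 16 sterol genes.

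Among the 6 measured enzymes of the mevalonate arm, Idi1 fell and the other 5 did not pass. Idi1 encodes isopentenyl-diphosphate isomerase, which makes the isoprenoid building block dimethylallyl diphosphate, and lies on chromosome 13 at 8885606 to 8892396 (plus strand; gene positions here are RefSeq's, in GRCm38.p6). Its log2 values were 7.63, 7.77, 7.55, 7.51 and 7.77 in controls 1 to 5 and 7.39, 7.15, 6.95, 7.26 and 7.32 in knockouts 1 to 5. All knockouts lay below all controls, with knockout 3 the lowest. Controls averaged 7.65 ± 0.12 and knockouts 7.22 ± 0.17 (SD, n = 5 per group), so the knockout level was 74.3% of the control level (95% interval 65.6% to 84.1%). The log2 difference was -0.43 (SE 0.083, limma adjusted p = 0.00805), and it held without any single kidney (adjusted p from 0.00618 to 0.0256).

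The other enzymes of that arm moved little. Hmgcs1, which makes HMG-CoA, had a difference of -0.08 (SE 0.075, adjusted p = 0.543 by limma). Its values ran from 11.54 to 11.87 in controls and from 11.50 to 11.88 in knockouts, so the ranges coincided. Mevalonate kinase (Mvk) differed by 0.05 (SE 0.045), phosphomevalonate kinase (Pmvk) by -0.12 (SE 0.054), the decarboxylase Mvd by -0.04 (SE 0.076) and farnesyl diphosphate synthase (Fdps) by 0.04 (SE 0.047). The 95% intervals of Mvk (-0.05 to 0.14) and Fdps (-0.06 to 0.15) leave out a fall of the size seen for Idi1, as does that of Hmgcs1 (-0.25 to 0.08). By limma, the smallest p among these 5, that of Pmvk, was 0.0498 unadjusted and 0.219 adjusted. Over all genes, 22.8% had an unadjusted p under 0.05.

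Of the 3 enzymes that take farnesyl diphosphate through squalene to lanosterol, Lss fell. Lss, lanosterol synthase, closes the ring system of the sterol and lies on chromosome 10 at 76531565 to 76557139. The controls measured 7.54, 7.51, 7.51, 7.54 and 7.47, a narrow range. The knockouts measured 7.21, 7.30, 7.16, 7.35 and 7.48, so knockout 5 was at the level of the controls and the other 4 were below them. The log2 difference was -0.21 (SE 0.057, limma adjusted p = 0.0416), which is 86.5% of the control level (95% interval 79.4% to 94.2%). The call was close to the threshold: without any single kidney other than knockout 5 the adjusted p was 0.0591 to 0.0976, and without knockout 5 it was 0.00528. Leaving out knockout 5 also raised the number of all genes that fell, from 822 to 1465. Squalene synthase (Fdft1) differed by -0.09 (SE 0.054) and squalene epoxidase (Sqle), a rate-limiting step, by 0.02 (SE 0.088), with a 95% interval of -0.17 to 0.21.

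None of the 7 measured enzymes after lanosterol passed by limma, and 1 of the 7 had an unadjusted p under 0.05, as had 22.8% of all genes. That was Hsd17b7, a ketoreductase of the demethylation steps. Its values were 8.52, 8.81, 8.55, 8.61 and 8.60 in controls and 8.20, 8.43, 8.09, 8.32 and 8.58 in knockouts. As with Lss, knockout 5 lay among the controls and the other 4 knockouts below all controls. The log2 difference was -0.30 (SE 0.086, limma adjusted p = 0.0555), and without knockout 5 it was -0.36 (adjusted p = 0.0109). It also passed after quantile normalisation (adjusted p = 0.0273), with a filter on dim genes (0.0425) and with array weights (0.0286). Hsd17b7 did not pass without any other single kidney (adjusted p up to 0.121) or after median centring. The demethylase Cyp51 differed by -0.12 (SE 0.073), the methyl oxidase Msmo1 by -0.06 (SE 0.049), the dehydrogenase Nsdhl by -0.07 (SE 0.05), the isomerase Ebp by -0.07 (SE 0.057) and the final reductase Dhcr7 by -0.07 (SE 0.1). The signal of Msmo1 was dim, with a control mean that exceeded 60.4% of the negative control rows, whereas 27 of the 28 genes exceeded over 80% of them.

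Sc5d, the sterol C5-desaturase, varied more between kidneys than any other gene of the sterol list. Its controls measured 8.97, 8.42, 8.81, 8.85 and 8.31 and its knockouts 8.97, 8.28, 8.19, 9.07 and 9.13. Both groups held high and low kidneys and overlapped over nearly their whole range. The difference of 0.05 (SE 0.2) had a 95% interval of -0.37 to 0.48, the widest of the sterol list.

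The 4 measured SREBP regulators did not pass by limma, and 1, Insig2, had an unadjusted p under 0.05. Insig1, which SREBP itself induces, had control values of 8.65, 8.34, 8.58, 8.62 and 8.90 and knockout values of 8.37, 8.28, 8.20, 8.19 and 8.91. Knockout 5 was as high as the highest control, and the other 4 knockouts lay between 8.19 and 8.37. The log2 difference was -0.22 (SE 0.13, limma adjusted p = 0.343), and without knockout 5 it was -0.36 (adjusted p = 0.0271). Over all genes, too, more fell without knockout 5 (1465, against 822 with it). Insig1 did not pass without any other single kidney (adjusted p up to 0.546, with differences as small as -0.15). Insig2 ranged from 8.32 to 8.46 in controls and from 8.14 to 8.29 in knockouts, so the groups did not overlap, yet the difference was small (-0.12, SE 0.045, limma adjusted p = 0.144). Srebf2, which encodes the sterol-responsive transcription factor, differed by -0.06 (SE 0.049, 95% interval -0.17 to 0.05), and Scap, its escort protein, by -0.07 (SE 0.051, 95% interval -0.18 to 0.04).

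**Figure D2:**
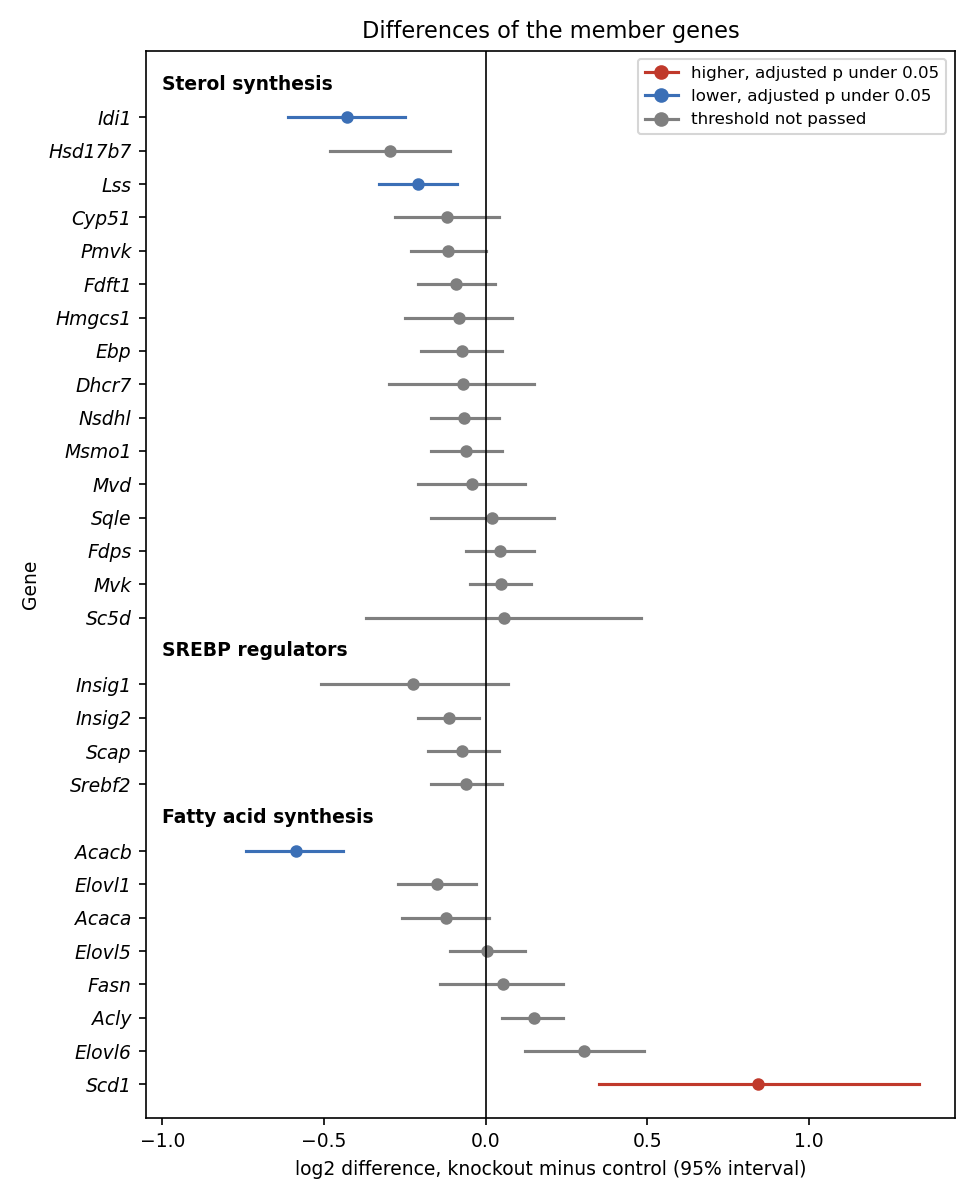
The points are log2 differences, knockout minus control, of the 28 genes with the 95% interval of the fit as bars, ordered within the 3 lists. Acacb (-0.59), Idi1 (-0.43) and Lss (-0.21) are in blue and Scd1 (0.84) in red, and the intervals of most other genes cross 0.

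The fatty acid genes differed in both directions. Acacb fell, Scd1 rose, and the other 6 measured genes did not pass, although Elovl6 and Acly came close to the threshold on the rising side. Acacb encodes acetyl-CoA carboxylase 2, which sits at the outer mitochondrial membrane, where its product malonyl-CoA blocks the entry of fatty acids for oxidation. The gene lies on chromosome 5 at 114146321 to 114250761. Its log2 values were 8.16, 8.24, 8.12, 8.40 and 8.03 in controls and 7.58, 7.62, 7.52, 7.53 and 7.77 in knockouts. Every knockout lay below every control, with knockout 5 the nearest to them. Controls averaged 8.19 ± 0.14 and knockouts 7.60 ± 0.10 (SD, n = 5 per group). The difference of -0.59 on the log2 scale (SE 0.069, limma adjusted p = 4.86e-04) corresponds to 66.6% of the control level (95% interval 60.0% to 73.9%). It had the smallest p of the 28 genes and passed without any single kidney (adjusted p up to 0.00213).

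Acaca encodes acetyl-CoA carboxylase 1, the cytosolic enzyme that supplies malonyl-CoA to fatty acid synthase. Its values were 7.36, 7.57, 7.49, 7.69 and 7.48 in controls and 7.40, 7.35, 7.31, 7.38 and 7.53 in knockouts. The groups overlapped, and the difference was -0.12 (SE 0.062, 95% interval -0.26 to 0.01, limma adjusted p = 0.264). That interval does not reach the interval of Acacb (-0.74 to -0.44). The pair was set side by side after the values were seen, and the difference between the genes was not tested.

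Scd1, stearoyl-CoA desaturase 1, which makes monounsaturated fatty acids, has 2 rows on the array, and they disagreed in size. As the mean of both rows, the controls measured 8.75, 8.70, 9.15, 9.75 and 9.24 and the knockouts 9.73, 9.62, 10.34, 9.54 and 10.56. Control 4 lay within the knockout range, and knockouts 3 and 5 were the highest. The log2 difference was 0.84 (SE 0.23, limma adjusted p = 0.0419), or 1.79-fold. In the brighter row, controls 1 to 5 measured 11.25, 11.14, 11.63, 12.13 and 11.59 and knockouts 11.83, 11.61, 11.91, 11.71 and 12.49, with control 4 above 4 of the knockouts. The brighter row gave 0.36 (SE 0.19, adjusted p = 0.28), from 11.55 ± 0.39 to 11.91 ± 0.34 (SD, n = 5 each). The dimmer row measured 6.24, 6.26, 6.67, 7.37 and 6.89 in controls and 7.63, 7.63, 8.78, 7.37 and 8.64 in knockouts, with only control 4 reaching the lowest knockout. The dimmer row gave 1.32 (SE 0.29, adjusted p = 0.0153), from 6.69 ± 0.47 to 8.01 ± 0.65. The dimmer row passed and the brighter row did not. The call was also lost without any single kidney other than control 4 or knockout 4 (adjusted p from 0.0504 to 0.105), after quantile normalisation (0.0548) and with array weights (0.62, adjusted p = 0.0893). Scd1 lies on chromosome 19 at 44394450 to 44407709.

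**Figure D3:**
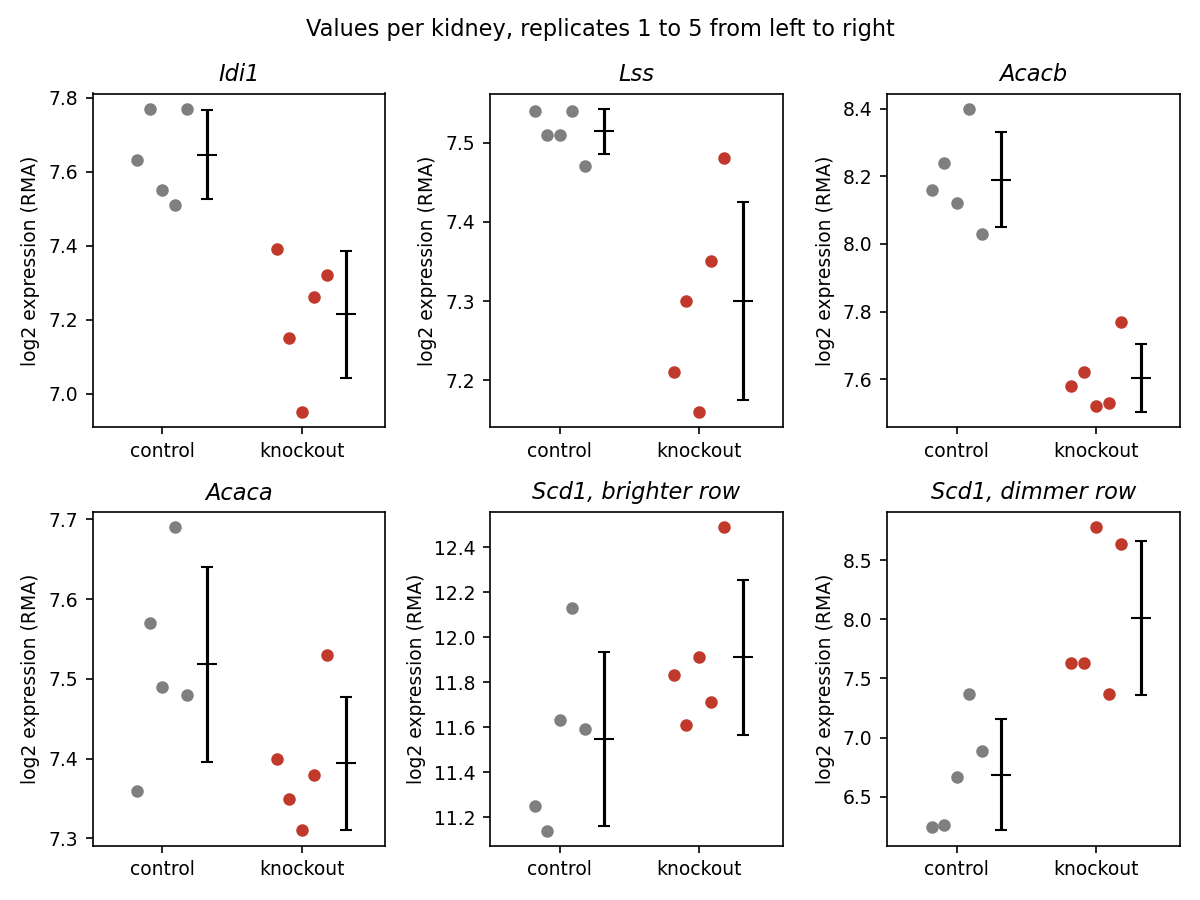
Points are the log2 values of single kidneys, controls in grey and knockouts in red, with the mean and SD of 5 kidneys at the side; each panel has its own axis, which does not start at 0. Acacb and Idi1 separate completely, knockout 5 of Lss reaches the controls, Acaca overlaps, and the 2 rows of Scd1 differ in how far the groups part (0.36 and 1.32).

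Elovl6, the elongase that lengthens palmitate to stearate, measured 8.89, 8.99, 9.17, 9.40 and 9.07 in controls and 9.34, 9.44, 9.25, 9.50 and 9.51 in knockouts. All knockouts except knockouts 1 and 3 lay above all controls, and control 4 was the highest control. The difference was 0.30 (SE 0.086, limma adjusted p = 0.0515), with an adjusted p of 0.00992 without control 4 and 0.0465 without knockout 3. Elovl6 also passed with a filter on dim genes (adjusted p = 0.0395). It did not pass without any other single kidney (adjusted p up to 0.112), after quantile normalisation, after median centring or with array weights. Acly, ATP citrate lyase, which makes cytosolic acetyl-CoA for both pathways, measured 9.56, 9.60, 9.50, 9.53 and 9.57 in controls and 9.70, 9.75, 9.58, 9.68 and 9.78 in knockouts. Only knockout 3 lay within the control range. Its difference was 0.15 (SE 0.044, limma adjusted p = 0.0577), and without knockout 3 it was 0.18 (adjusted p = 0.0236). Acly also passed with the filter on dim genes (adjusted p = 0.0414) and with array weights (0.0297). It did not pass without any other single kidney (adjusted p up to 0.14), after quantile normalisation or after median centring.

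The remaining fatty acid genes did not pass. Fatty acid synthase (Fasn) ranged from 8.47 to 9.05 in controls, with control 4 the highest, and from 8.67 to 8.88 in knockouts. Its difference was 0.05 (SE 0.088, 95% interval -0.14 to 0.24). Elovl1, an elongase of very long chains, differed by -0.15 (SE 0.056, limma adjusted p = 0.129). Elovl5, which lengthens polyunsaturated fatty acids, differed by 0.003 (SE 0.052, 95% interval -0.11 to 0.12).

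Set against each other, the sterol list had 2 genes that fell and 0 that rose, and the fatty acid list 1 of each. Of the 16 sterol genes, 12 had a difference below 0 (75.0%, beside 62.0% of all genes), with a median of -0.07 and a range from -0.43 to 0.05. At an unadjusted p under 0.05, 4 of the 16 passed (25.0%), near the 22.8% of all genes. Of the 8 fatty acid genes, 3 had a difference below 0 (37.5%), and 5 of the 8 had an unadjusted p under 0.05 (62.5%). They had a median of 0.03 and a range from -0.59 to 0.84. The median absolute difference was 0.07 in the sterol list and 0.15 in the fatty acid list, beside 0.07 over all genes. As a mean over the sterol genes, relative to the controls, knockouts 1 to 5 stood at -0.07, -0.12, -0.24, -0.05 and 0.01, while controls ranged from -0.03 to 0.03. Knockout 5 thus lay within the control range and the other 4 below it. As a mean over the fatty acid genes the knockouts stood at 0.01, 0.04, 0.01, 0.03 and 0.21, inside or just above the control range of -0.09 to 0.19, whose top was control 4. Their mean difference of 0.06 was 0.0011 when only the brighter row of Scd1 was used. The members were chosen with results known, so these means carry no test.

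Knockouts 3 and 5 marked the ends of the knockout group. Knockout 3 had the lowest knockout value for 21 of the 28 genes, whereas over all genes it was the lowest for 24.2%. Knockout 5 had the highest knockout value for 15 of the 28, against 26.3% of all genes. The mean of the 4 regulators ran the same way, at -0.26 in knockout 3 and 0.07 in knockout 5. A low knockout 3 was not particular to the members. It was also the lowest knockout in the means of further genes of SREBP processing (-0.11), fatty acids (-0.12), NADPH supply (-0.16) and lipid storage (-0.06). In the mean of further genes of sterol use and transport (0.01) it was not the lowest. Marker genes of other cells also differed between these kidneys. The 10 macrophage markers, all of which rose, were highest as a mean in knockout 3 (1.49 above the controls) and lowest in knockout 5 (0.63). The 8 proximal tubule markers were lowest in knockout 3 (-0.33) and highest in knockout 5 (-0.07), and so were the 8 distal nephron markers (-0.51 and -0.28). The part of these shifts in the sterol and regulator values was not tested.

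**Figure D4:**
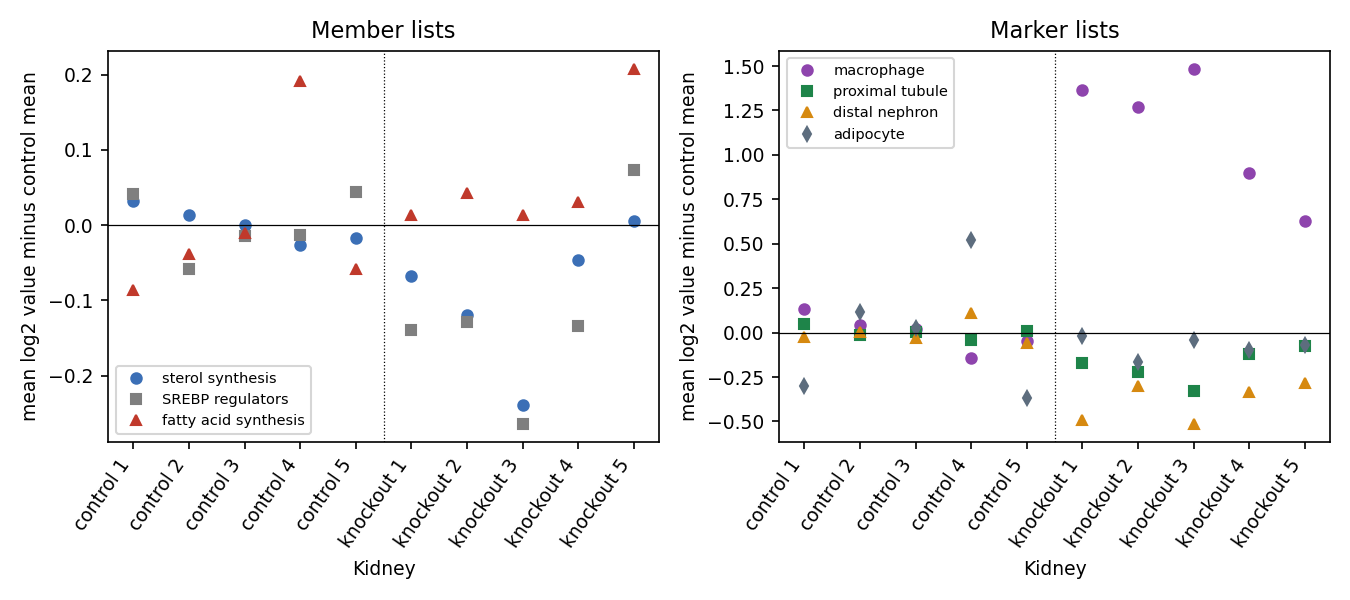
Each point is the mean, in a kidney, of a gene list's log2 values minus the control mean; member lists are on the left and marker lists on the right, with separate vertical scales. Knockout 3 is lowest for sterol genes and regulators and highest for macrophage markers, knockout 5 (0.21) and control 4 (0.19) are highest for fatty acid genes, and control 4 is highest for adipocyte markers.

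Kidney tubule markers were bright. The endocytic receptor Lrp2, the phosphate transporter Slc34a1 and uromodulin (Umod) each exceeded over 99% of the negative control rows in both groups. In the knockouts 3 of 8 proximal tubule markers fell, among them the dicarboxylate transporter Slc13a3 (-0.42), Lrp2 (-0.21) and the glucose transporter Slc5a2 (-0.46). Of 8 distal nephron markers, 6 fell and 1 rose, including the anion exchanger Slc26a4 (-1.13) and Egf (-0.96), with Aqp2 rising (0.94). Slc5a2 lost its call without knockout 1 (adjusted p = 0.0517) or knockout 2 (0.052). All 10 macrophage markers rose, led by Lyz2 (2.38), Mpeg1 (1.47) and Mrc1 (1.41), and their mean level was 6.87 to 7.15 in controls and 7.64 to 8.50 in knockouts. All 6 measured fibroblast markers rose, led by Dpt (2.41), and 3 of 4 urothelium markers did. Of these, Upk1a (0.65, adjusted p = 0.0424) passed only without control 4 or knockout 1 when single kidneys were left out, with adjusted p up to 0.107 without the others. How much of the changes in Acacb, Idi1, Lss and Scd1 goes with these shifts in cell markers was not tested.

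Fat around the kidney and the adrenal gland are tissues rich in these enzymes. None of 9 measured adipocyte markers passed by limma, with 0 at an unadjusted p under 0.05 and a difference of -0.09 for Lipe, the smallest p among them. Their mean level was 6.16 to 7.05 in controls and 6.36 to 6.51 in knockouts. Relative to the control mean, control 4 stood at 0.52 and control 5 at -0.37. Control 4 also had the highest control value for 5 of the 8 fatty acid genes (62.5%, against 14.6% of all genes). The control means of these markers exceeded from 35.6% (Lep) to 96.6% (Fabp4) of the negative control rows. Adipoq, a defining adipocyte gene, exceeded 55.9% of them, and measured 6.14 in control 4 against 4.99 to 5.60 in the other controls. The part of adipocyte RNA in the fatty acid values was not tested. None of 8 measured adrenal markers passed either, with 0 at an unadjusted p under 0.05, and their control means exceeded from 36.5% (Hsd3b1) to 77.1% (Mrap) of those rows, with Star at 57.0%. Without controls 4 and 5, Acacb, Idi1 and Scd1 passed and Elovl6 also passed (0.39, adjusted p = 0.0203), while Lss did not (adjusted p = 0.119).

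Other genes of lipid synthesis and handling were taken from 5 lists, chosen with results of these data known. Of 26 further fatty acid genes, all measured, 2 rose and 2 fell. Those that fell were Fads6, a desaturase-like gene (-0.41, SE 0.051, limma adjusted p = 7.04e-04), and Acss2, which makes acetyl-CoA from acetate (-0.34, SE 0.069, adjusted p = 0.0105). Fads6 was 7.39 to 7.56 in controls and 6.97 to 7.12 in knockouts, and Acss2 was 9.13 to 9.28 and 8.61 to 9.03, so neither overlapped. Those that rose were the neighbouring desaturases of polyunsaturated fatty acids Fads1 (0.26, SE 0.054, adjusted p = 0.0125) and Fads2 (0.17, SE 0.045, adjusted p = 0.0437). The groups did not overlap for Fads1. Fads2 has 2 rows: the brighter gave 0.11 (adjusted p = 0.198) and the dimmer 0.22 (adjusted p = 0.0258), and the groups overlapped in each row but not in their mean. Without controls 4 and 5, Fads1 did not pass (adjusted p = 0.069). Fads2 is named outside the rule for this list, after its values were seen.

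Of 18 measured genes of sterol use and transport, 2 rose and 1 fell. Ch25h, cholesterol 25-hydroxylase, an enzyme that macrophages express strongly, rose by 0.75 (SE 0.18, limma adjusted p = 0.0213), and Npc2, a lysosomal sterol carrier, by 0.17 (SE 0.042, adjusted p = 0.0244). The lipoprotein receptor Vldlr fell from 9.23 ± 0.06 to 8.92 ± 0.15 (SD, n = 5 each; -0.31, SE 0.066, adjusted p = 0.0126), with no overlap. Without knockouts 1, 2 or 3 in turn, Ch25h did not pass (adjusted p up to 0.0588), nor did Npc2 without those or control 3 (up to 0.0649). Vldlr passed without any single kidney (adjusted p up to 0.0359) but not without controls 4 and 5 together (0.0735). Of 14 measured lipid storage genes, 2 rose and 0 fell. They were Plin2, which coats lipid droplets (0.22, SE 0.059, adjusted p = 0.0378), and the acyl-CoA synthetase Acsl4 (0.23, SE 0.06, adjusted p = 0.033). Acsl4 passed only without control 1, control 2 or knockout 5, and Plin2 only without control 1 or knockout 4, with adjusted p up to 0.0808 and 0.0861 without the others. None of 6 SREBP processing genes and none of 4 genes that supply NADPH passed by limma, with 1 each at an unadjusted p under 0.05, Erlin2 (-0.14) and Taldo1 (-0.12). Over the 5 lists, 9 of 68 measured genes passed (13.2%, beside 7.89% of all genes), and the median difference was -0.01. The 7.89% again includes the genes that the filter on dim genes would leave out.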

How the data were processed

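Whole-kidney RNA was labelled with Affymetrix reagents and hybridised to arrays, per the labels' protocols, and the deposited log2 values were made by RMA, per the submitters' processing notes, with build mm10. For RMA, no version or filter is given in the sources used here. The log2 scale was taken from the values, whose array medians were 5.35 to 5.42. RMA summarises all probes of a transcript, which can compress changes of dim genes. Of 72688 rows, 31080 had 1 gene by the platform annotation, 1670 several and 39938 none; symbols were updated through Entrez identifiers for 1439 rows, and several rows of a gene were averaged. Of the genes, 357 had several rows.

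Groups were compared with limma 3.58.1 in R 4.3.3 (eBayes with a mean-variance trend, no filter, no covariate) over 30627 genes, and the fit was tested on simulated data. Arrays carry no read counts, so their number limits precision; correlations between arrays were 0.9918 to 0.9979. The percentage of 5222 negative control rows below a gene's mean gives its signal over background. Python 3.11.15, pandas 2.3.3 and matplotlib 3.10.9 were used. All members were named, with Stk11 and, from each further list, the 3 largest called differences or else the smallest p. Members and lists were chosen with earlier results of these data known.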

Additional observations from a re-analysis of the deposited data

Results flagged for a closer look

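Of 112 groups of 5 kidneys (56 named genes in controls and in knockouts), 7 had a kidney far from the other 4 by Dixon's criterion, and chance gives about 1 in 20. Knockout 3 was the low kidney for Ebp (6.74, the others 6.85 to 6.88), Insig2 (8.14, the others 8.25 to 8.29) and Elovl5 (10.29, the others 10.44 to 10.50). Knockout 5 was the high kidney for Insig1 (8.91, the others 8.19 to 8.37), and knockout 4 for Fdps (6.99, the others 6.85 to 6.88). Control 3 was low for Acsl4 (9.47, the others 9.70 to 9.77). Control 4 was high for the urothelium marker Upk2 (6.97, the others 6.43 to 6.58).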

How the results depend on the processing

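Acacb and Idi1 kept their direction and passed under every alternative, whereas small counts of calls moved. The sterol genes that fell numbered 2, but 1 after median centring and 1 without controls 4 and 5 together, 3 after quantile normalisation, with the filter on dim genes and with array weights, and 1 to 3 without single kidneys. The fatty acid genes that rose numbered 1, but 0 after quantile normalisation and 0 with the brightest row per gene, 3 with the filter on dim genes, 3 with the replicate number as a block, 2 without controls 4 and 5, and 0 to 2 without single kidneys. With array weights the number that rose stayed at 1, but the gene was Acly (adjusted p = 0.0297) and not Scd1 (0.0893). The fatty acid genes that fell numbered 1, but 2 after quantile normalisation, where Elovl1 passed (adjusted p = 0.0448). The regulators that fell numbered 0, or 0 to 1 without single kidneys (1 without knockout 5). Over the further lipid lists, 6 rose, but 3 after quantile normalisation, 2 after median centring, 0 without controls 4 and 5, and 1 to 6 without single kidneys. There 3 fell, but 11 after quantile normalisation, 6 with the filter, 5 with array weights, and 3 to 9 without single kidneys (9 without knockout 5). Over all genes 822 fell, but 1268 after quantile normalisation, 464 without controls 4 and 5, and 440 to 1465 without single kidneys (1465 without knockout 5, and 440 to 520 without control 1, control 3 or knockouts 1, 2 or 3). Leaving out kidneys leaves fewer samples; for the other settings the cause was not tested.

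The mean difference of the sterol genes was -0.09, ranging from -0.057 without knockout 3 to -0.12 without knockout 5, and that of the fatty acid genes 0.06, ranging from 0.025 to 0.11 without single kidneys. With the brightest row per gene the fatty acid mean was 0.0011, and with the dimmest 0.12. Genes with differences near 0 changed sign: Mvd with array weights (0.0036) and without single kidneys (-0.092 to 0.017), Sqle without controls 4 and 5 (-0.084) and without single kidneys (-0.045 to 0.075), Sc5d likewise (-0.0075, and -0.045 to 0.19), Fasn without single kidneys (-0.01 to 0.14), and Elovl5 after quantile normalisation (-0.015), without controls 4 and 5 (-0.018) and without single kidneys (-0.02 to 0.039). The dimmest row per gene was added after the data were seen.

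Same-numbered kidneys did not all deviate together (correlations of 0.252, 0.316, 0.104, -0.078 and 0.189). Controls 1, 2 and 5 correlated best with the knockout of their own number (highest with another number 0.011, 0.08 and 0.003). Controls 3 and 4 correlated better with another number (up to 0.249 and 0.154). The numbers were not taken as pairs in the main fit, and whether same-numbered kidneys share an origin was not tested. With the replicate block 1817 genes rose and 970 fell, Hsd17b7 (adjusted p = 0.0235), Acly (0.0418) and Elovl6 (0.0333) passed, and Lss did not (0.059).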
